A study of Mus musculus with 5 samples.

Results

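The Fli1 locus was described here peak by peak in ATAC-seq libraries of haematopoietic stem and progenitor cells (HSPC). ATAC-seq marks open chromatin, because a transposase can cut and tag only accessible DNA. The locus comprised every called peak on chromosome 9 that overlapped the Fli1 gene (mm10, 32422204 to 32543432) or the 100 kb on each side, in the full peak list of each library. This gave 135 peaks, which joined into 72 regions by overlap of at least 1 bp, out of 232104 regions in the series as a whole. Smc3-het replicates 1 and 2 held 10 and 17 of these peaks, and Smc3-wt replicates 1, 2 and 3 held 30, 34 and 44.

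The cells came from lineage-depleted bone marrow of mice that all carried Mx1-Cre and inv(16) and had all been given PIPC. The 2 Smc3-het libraries had the genotype Smc3 D/+, and the 3 Smc3-wt libraries Smc3 +/+. Smc3 is a ring subunit of cohesin. PIPC is double-stranded RNA that turns on the interferon-driven Mx1 promoter and with it the Cre recombinase, in blood cells and in other tissues. No library without inv(16), without Cre or without PIPC was analysed here, and the labels give neither age nor sex, nor the inv(16) allele, nor whether each library was a separate mouse, so a p-value speaks for the spread among these libraries only, and that spread may be technical. The series title names Fli1 gene programs as the question.

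Fli1 encodes an ETS-family transcription factor that binds DNA at GGAA cores. In blood it acts with Erg, Gata2, Runx1, Tal1, Lyl1 and Lmo2, a set known as the heptad, and it is needed for megakaryocyte and platelet formation. The gene is transcribed towards lower coordinates, so its upper end is the promoter side, and distances inside the gene are counted here from that end.

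A peak's strength was its summit pileup, the number of fragments over the highest base, divided by the commonest background coverage of its library. That background was 3.59 and 2.92 fragments in the Smc3-het libraries and 2.74, 1.93 and 3.02 in the Smc3-wt libraries. Smc3-het peaks were weaker at most shared sites: across the 14625 regions called in 5 of 5 libraries, median strength was 10.3 and 12.7 in Smc3-het libraries, against 21.5, 22.8 and 29.1 in Smc3-wt libraries, a median log2 difference of −1.07, with 97.8% of regions negative. Strengths are therefore given both as they stand and divided by the library's own median over those 14625 regions, called the scaled strength below. The lowest strength of any called peak was 3.34 and 3.42 in Smc3-het libraries, against 3.28, 3.63 and 2.98 in Smc3-wt libraries. After scaling, the lowest value that a called peak can take is therefore higher in Smc3-het libraries. Gene-end peaks were found for 5 and 3 of 8 HSPC markers in Smc3-het libraries, against 6, 7 and 6 in Smc3-wt libraries, with Mecom at 0 in every list. Of 21887 protein-coding genes, 48.7% and 50.8% had a gene-end peak in Smc3-het libraries, against 57.0%, 60.9% and 63.3% in Smc3-wt libraries. For T cell markers the counts were 0 and 0 of 4 against 0, 0 and 1, for B cell 1 and 2 of 4 against 1, 3 and 3, and for erythroid 3 and 2 of 4 against 4, 4 and 4. Granulocyte-monocyte counts were 0 and 1 of 4 against 2, 1 and 1, megakaryocyte 2 and 2 of 4 against 3, 3 and 3, and endothelial and stromal 2 and 2 of 4 against 2, 2 and 2. The part of cell mixture in the results was not tested. Smc3 itself had a gene-end peak in 5 of 5 libraries, which does not check the loss of an allele. Smc3-wt replicates 1 and 3 alone had gene-end peaks at the Y-linked genes Kdm5d, Eif2s3y, Uty and Ddx3y, so the 3 shared Fli1 regions are also given without these 2 libraries. Y-linked peaks were thus absent from both Smc3-het libraries, an imbalance between genotypes that every other comparison below carries. Its part in the results was not tested.

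The strongest open site of the locus in 4 of 5 libraries lay just inside the promoter side of Fli1. This region (chromosome 9, 32539960 to 32541849) ended 1.58 kb inside the upper gene end and was called in every library. Its summit pileup was 38 and 41 fragments in the 2 Smc3-het libraries, against 40, 39 and 81 in replicates 1, 2 and 3 of Smc3-wt. The same site reached 10.6 and 14.0 times background in Smc3-het libraries, against 14.6, 20.2 and 26.8 times in Smc3-wt libraries. Both Smc3-het values thus lay below every Smc3-wt value, although Smc3-het replicate 2 and Smc3-wt replicate 1 were close together. Means were 12.3 ± 2.44 (SD, n = 2) in Smc3-het libraries, against 20.5 ± 6.12 (SD, n = 3) in Smc3-wt, a log2 difference of −0.71. Its two-sided exact permutation p was 0.2, the smallest that 2 against 3 libraries allow, and 0.244 adjusted over all 14625 regions (Benjamini-Hochberg). No value here could pass a threshold of 0.05.

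The direction at the promoter side turned once the library's general strength was taken into account. Scaled strength was 1.03 and 1.11 in Smc3-het libraries, close to those libraries' typical shared region, and 0.678, 0.886 and 0.920 in Smc3-wt libraries. Here both Smc3-het values lay above every Smc3-wt value, with a log2 difference of 0.38 (two-sided exact permutation p 0.2, adjusted 0.505). Ranked among the 14625 regions of the same library, this site stood at percentiles 51.0 and 56.7 in Smc3-het libraries, against 30.4, 42.6 and 45.7 in Smc3-wt libraries. Without the 2 libraries with Y-linked peaks, the log2 difference was −0.73 unscaled and 0.27 scaled, from 2 Smc3-het and 1 Smc3-wt library. The counting interval of a pileup was wide: the 38 fragments of Smc3-het replicate 1 had an exact Poisson 95% interval of 26.9 to 52.2, and the 81 of Smc3-wt replicate 3 one of 64.3 to 101, for counting error only. In bulk cells, fewer cells with an open site and less opening per cell cannot be told apart.

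**Figure D1:**
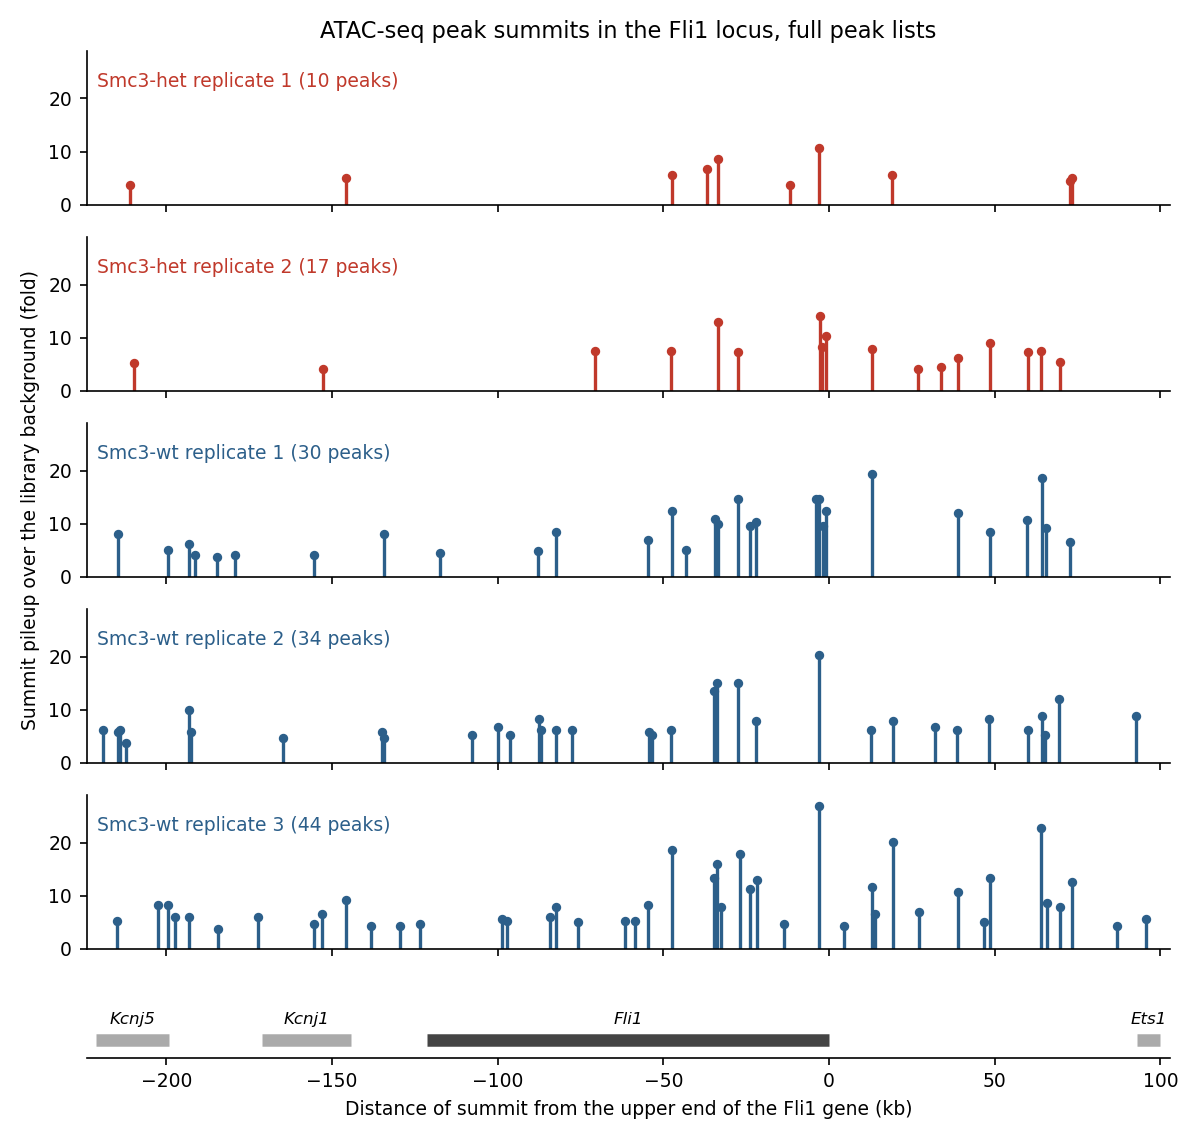
Summits of all 135 peaks in the Fli1 locus, by library, as distance in kb from the upper gene end (horizontal) and summit pileup over the commonest background of the library (vertical). Negative distances run towards lower coordinates, through the 121 kb of Fli1 and on below its lower gene end. Each stem is 1 peak and grey bars mark genes; the promoter-side summit was the tallest in both Smc3-het libraries (10.6 and 14.0) and in replicates 2 and 3 of Smc3-wt (20.2 and 26.8), while Smc3-wt replicate 1 peaked at 19.3 beyond the upper end.

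The annotated upper end of Fli1 itself carried a smaller site next to it. This region (chromosome 9, 32542061 to 32542627) was called in Smc3-het replicate 2, at 10.3 times background, and in Smc3-wt replicate 1, at 12.4 times background. With 1 library of each genotype there was no test, and the log2 difference was −0.27. A library with no call has no deposited value there, so a missing peak is not a strength of 0. The lower gene end had no peak within 1 kb in any library.

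Inside the gene, 2 further regions were called in every library. One (chromosome 9, 32509482 to 32510982) ended 32.45 kb inside the upper end and reached 8.64 and 13.0 times background in Smc3-het libraries, against 9.85, 15.03 and 15.9 in Smc3-wt libraries. These values overlapped between genotypes, with a log2 difference of −0.33 (two-sided exact permutation p 0.4). Scaled, they were 0.838 and 1.03 in Smc3-het libraries, against 0.458, 0.659 and 0.545 in Smc3-wt libraries, which did not overlap. The scaled log2 difference was 0.76 (two-sided exact permutation p 0.2, adjusted 0.505), and it was higher than that of 92.6% of all shared regions or equal to it. Without the 2 libraries with Y-linked peaks it was −0.50 unscaled and 0.49 scaled.

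The other (chromosome 9, 32495056 to 32496286) ended 47.1 kb inside the upper end and varied most among Smc3-wt libraries of the 3 regions called in every library. Its strength was 5.57 and 7.53 in Smc3-het libraries, against 12.4, 6.22 and 18.5 in Smc3-wt libraries. Smc3-wt replicate 2 lay between the Smc3-het libraries, so the groups overlapped (log2 difference −0.80, two-sided exact permutation p 0.4). The scaled values, 0.541 and 0.595 in Smc3-het libraries, against 0.576, 0.273 and 0.636 in Smc3-wt libraries, overlapped as well, at a scaled log2 difference of 0.29 (two-sided exact permutation p 1). With Smc3-wt replicate 2 as the single Smc3-wt library, which leaves out the libraries with Y-linked peaks, the log2 difference was 0.06 unscaled and 1.06 scaled. A called peak has a higher lowest scaled value in Smc3-het libraries. Set against 0.273 in Smc3-wt replicate 2, this limits the reading of the scaled difference.

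Set against all shared regions, the promoter-side site was the 1 of the 3 whose strength was lower in both Smc3-het libraries than in every Smc3-wt library, where 81.5% of the 14625 regions were. Scaled strength was higher in both Smc3-het libraries at 2 of the 3, against 18.5% of all shared regions. Over the 3 regions together, the mean log2 difference was −0.61 unscaled and 0.48 scaled (two-sided exact permutation p 0.2 for each). Among all shared regions the median scaled difference was 0.01, and 49.1% were negative. The log2 difference in raw pileup, with no division, was −0.25 for the 3 regions (two-sided exact permutation p 0.8).

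**Figure D2:**
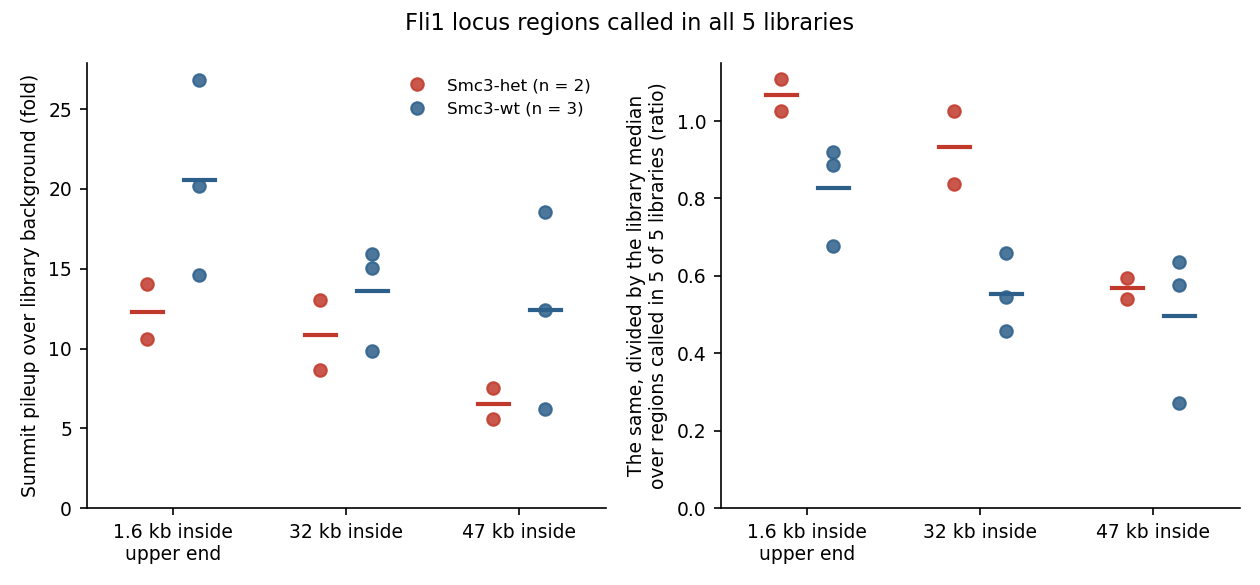
Strength of the 3 Fli1 regions called in all 5 libraries, as pileup over library background (left) and after division by the library's median over 14625 shared regions (right). Points are libraries and bars are group means (Smc3-het, n = 2, left of Smc3-wt, n = 3); at the promoter side Smc3-het lies below Smc3-wt on the left panel, at 10.6 and 14.0, and above it on the right, at 1.03 and 1.11.

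Summits at the promoter side also sat at different bases. They were at 32540563 and 32540617 in the Smc3-het libraries, and at 32540372, 32540324 and 32540316 in the Smc3-wt libraries, so the Smc3-het summits lay nearer the upper gene end. The mean difference was 253 bp (two-sided exact permutation p 0.2), against a median absolute difference of 62.2 bp over all shared regions. Of those regions, 9.93% had both Smc3-het summits at higher coordinates than every Smc3-wt summit, as this 1 of 3 Fli1 regions did, and 19.9% had summits apart in either direction. At the region 32.45 kb inside, summits were at 32510077 and 32509918 in Smc3-het libraries and at 32510070, 32509720 and 32509717 in Smc3-wt libraries, which overlapped. At the region 47.1 kb inside, the summits of 32496175 and 32495745 in Smc3-het spanned those of Smc3-wt replicates 1 and 3, at 32495917 and 32495924, while Smc3-wt replicate 2 was at 32495661. The called intervals of the 2 Smc3-het libraries did not touch each other there, and were joined by the wider Smc3-wt intervals.

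Peak widths were smaller in both Smc3-het libraries at 1 of these 3 regions, where 43.3% of all shared regions had this order. At the promoter side the interval with the summit was 1500 and 577 bp in Smc3-het libraries, against 684, 1855 and 1580 bp in Smc3-wt libraries, which overlapped (two-sided exact permutation p 0.4). Smc3-het replicate 2 and Smc3-wt replicate 1 each had a further, weaker peak inside this region. Just below the region, Smc3-wt replicate 1 alone had a separate peak (chromosome 9, 32539362 to 32539666, summit 32539428). Its pileup of 40, or 14.6 times background, equalled that library's promoter-side summit. Widths at the region 47.1 kb inside were 268 and 358 bp in Smc3-het, against 648, 487 and 1231 bp in Smc3-wt libraries, with no overlap (two-sided exact permutation p 0.2). Over all peaks of the locus, the median width was 367 and 419 bp in Smc3-het libraries, against 472, 391 and 443 bp in Smc3-wt libraries.

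**Figure D3:**
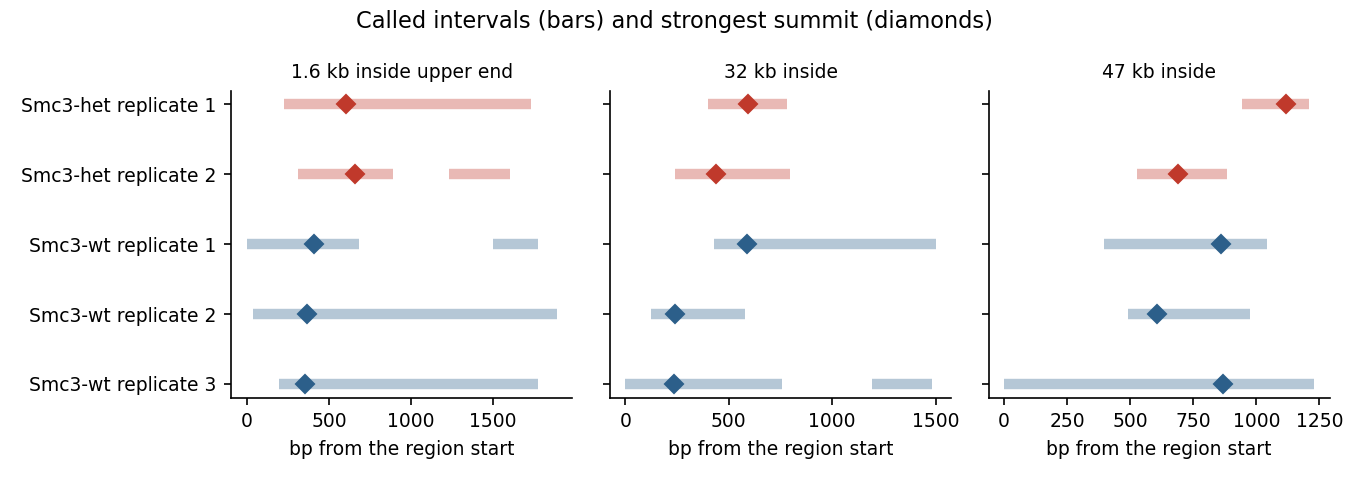
Called intervals (bars) and the strongest summit (diamonds) of each library in the 3 regions called in all 5 libraries, in bp from the start of the region, which is its lower coordinate (horizontal), by library (vertical; Smc3-het above Smc3-wt). At the promoter side both Smc3-het diamonds lie to the right of all 3 Smc3-wt diamonds, by a mean of 253 bp.

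At 2 of the 3 shared regions, local coverage was over 2 times the commonest background in every library. The local background that MACS2 used at a peak can be solved from its pileup and fold enrichment. At the promoter side it was 10.4 and 8.30 fragments in Smc3-het libraries, against 9.17, 6.68 and 12.2 in Smc3-wt libraries, or 2.88 and 2.84 times the library's commonest value in Smc3-het, against 3.35, 3.46 and 4.05 times in Smc3-wt. At the region 32.45 kb inside it was 2.28 and 2.18 in Smc3-het libraries, against 2.41, 2.74 and 2.93 in Smc3-wt, and at 47.1 kb 1.39 and 1.17 against 1.31, 0.998 and 1.32. The ratio was lower in both Smc3-het libraries at 2 of the 3 regions, against 59.4% of all shared regions. The deposited fold enrichment divides by this local background, and at the promoter side it was 3.44 and 4.52 in Smc3-het libraries, against 4.03, 5.21 and 6.19 in Smc3-wt libraries, smaller than the pileup over commonest background.

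Beyond the upper end, a local background of at least 2 times the commonest value was seen in Smc3-wt replicates 1 and 3 only, reaching 2.91 and 2.85. Peaks with a local background of at least 2 times the commonest value made up 30.0% and 23.5% of the locus peaks in Smc3-het libraries, against 43.3%, 8.82% and 22.7% in Smc3-wt libraries. Over all peaks these shares were 25.9% and 16.0% in Smc3-het libraries, against 18.7%, 11.9% and 14.1% in Smc3-wt libraries. The locus share was thus above that of all peaks in both Smc3-het libraries and in Smc3-wt replicates 1 and 3, and below it in Smc3-wt replicate 2.

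**Figure D4:**
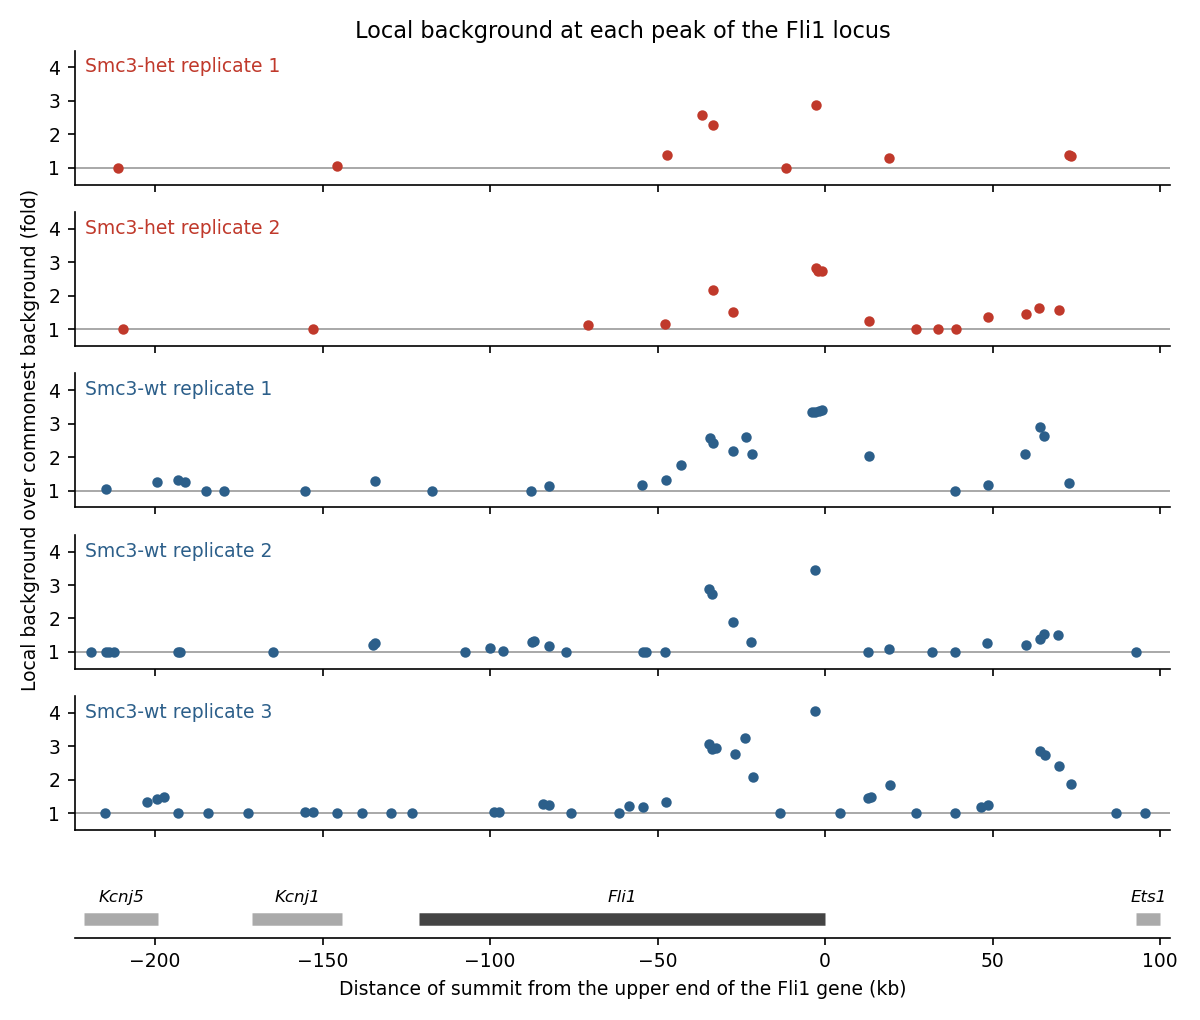
Local background at each peak of the locus over the commonest background of its library (vertical; the grey line is 1), against distance of the summit from the upper gene end in kb (horizontal). Values rise between about 20 and 40 kb inside Fli1 and at its upper end in every library, up to 2.88 and 2.84 in Smc3-het libraries, against 3.41, 3.46 and 4.05 in Smc3-wt libraries; around 60 to 70 kb beyond that end they exceed 2 in Smc3-wt replicates 1 and 3.

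Beyond the upper end, in the stretch towards Ets1, a row of sites was shared by Smc3-het replicate 2 and the Smc3-wt libraries. Other sites there were shared by Smc3-het replicate 1 and some Smc3-wt libraries. Regions called in 4 of 5 libraries numbered 5, of which 1 lay in the gene, and Smc3-het replicate 1 was the library without a call at each. They made up 6.94% of the locus regions, against 2.82% of all 232104 regions. Smc3-het replicate 1 had the shortest list, at 26885 peaks, and 3695 regions of the series were called in every library but that one. The one in the gene (chromosome 9, 32515711 to 32517033) had 7.19 times background in Smc3-het replicate 2, against 14.6, 15.03 and 17.9 in Smc3-wt libraries. The region 12.6 kb beyond the upper end (chromosome 9, 32556071 to 32556661) had 7.88 in Smc3-het replicate 2, against 19.3, 6.22 and 11.6 in Smc3-wt libraries. It was the strongest peak of Smc3-wt replicate 1, and the Smc3-wt libraries differed among themselves by 3.11 times. At 63.8 kb beyond (chromosome 9, 32607201 to 32607723) the values were 7.53 in Smc3-het replicate 2, against 18.6, 8.81 and 22.8 in Smc3-wt libraries.

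Of the other 2 sites, the region 38.4 kb beyond (chromosome 9, 32581810 to 32582531) had 6.16 in Smc3-het replicate 2, against 12.0, 6.22 and 10.6 in Smc3-wt libraries. At 48.1 kb beyond (chromosome 9, 32591558 to 32592326) the values were 8.90 in Smc3-het replicate 2, against 8.39, 8.29 and 13.2 in Smc3-wt libraries, so that Smc3-het lay within the Smc3-wt range. In all, Smc3-het replicate 2 was below every Smc3-wt library at 3 of the 5 regions, at 1 of them after scaling, and above every Smc3-wt library at 1 after scaling. Over all 3695 regions called in every library but Smc3-het replicate 1, these shares were 76.6% below, 18.8% below after scaling and 32.7% above after scaling. A single Smc3-het value gives no test of these differences. Smc3-het replicate 1, but not replicate 2, had a call 18.8 kb beyond the upper end (chromosome 9, 32562230 to 32563107). It had 5.57 there, against 7.77 and 20.2 in Smc3-wt replicates 2 and 3. The same held 72.5 kb beyond (chromosome 9, 32615884 to 32617047), with 5.01 against 6.57 and 12.6 in Smc3-wt replicates 1 and 3.

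A further 7 of the 72 regions, 9.72%, had a peak in all 3 Smc3-wt lists and in 0 of 2 from Smc3-het, against 2.44% of all 232104 regions. The reverse pattern was found at 0 of the 72 and at 0.0745% of all regions. Counting any number of lists, 50 of the 72 regions, 69.4%, were in Smc3-wt lists only, against 80.2% of all regions. Those in Smc3-het lists only made up 8.33%, against 7.08% of all regions. Of the 7, 4 lay in the gene, 2 below its lower end and 1 beyond its upper end. The strongest, 34.2 kb inside the upper end (chromosome 9, 32508491 to 32509183), had 10.9, 13.5 and 13.2 times background in the Smc3-wt libraries. The next, 21.4 kb inside (chromosome 9, 32521245 to 32522024), had 10.2, 7.77 and 12.9. Across the 7 regions the Smc3-wt values ran from 5.18 to 13.5, below the promoter-side values of the same libraries. The Smc3-wt lists were longer, at 65880, 102822 and 121224 peaks, than the Smc3-het lists of 26885 and 36467 peaks. With each list cut to its 26885 strongest peaks by −log10 p, 0 of the 27 remaining Fli1 regions separated the genotypes in this way, where 1.92% of all remaining regions did.

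Fewer peaks were called at the locus in both Smc3-het libraries in full lists, but not in lists of equal size. In full lists the locus had 13.5 ± 4.95 peaks (SD, n = 2) in Smc3-het libraries, against 36 ± 7.21 (SD, n = 3) in Smc3-wt, and covered 6130 ± 2207 bp and 18485 ± 5038 bp (two-sided exact permutation p 0.2 for both). With lists of equal size the peak count was 10 and 13 in Smc3-het libraries, against 15, 6 and 12 in Smc3-wt libraries (two-sided exact permutation p 1), and the groups overlapped. The median strength of the peaks, 5.29 and 7.53 in Smc3-het against 8.76, 6.22 and 6.79 in Smc3-wt libraries, overlapped in full lists (two-sided exact permutation p 0.6). With lists cut to equal size, which reach weaker peaks in Smc3-het, it was 5.29 and 7.53 against 12.0, 13.5 and 14.6 (two-sided exact permutation p 0.2). Per 100 kb the locus held 3.11 and 5.29 peaks in Smc3-het libraries, against 9.34, 10.6 and 13.7 in Smc3-wt libraries. Among the 100 kb surroundings of 21887 protein-coding genes, this placed Fli1 at percentiles 68.5 and 89.7 in Smc3-het libraries, against 96.6, 96.2 and 98.0 in Smc3-wt libraries. The median over those genes was itself lower in Smc3-het libraries, at 1.97 and 2.33, against 4.12, 5.66 and 6.90 in Smc3-wt libraries. As a share of all peaks of a library, the locus held 0.0372% and 0.0466% in Smc3-het. The Smc3-wt shares were 0.0455%, 0.0331% and 0.0363%, so the groups overlapped.

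Sites found in several libraries lay mostly towards and beyond the promoter side. Of the 72 regions, 43 were called in 1 library, 10 in 2, 11 in 3, 5 in 4 and 3 in 5. Of the 19 called in at least 3 libraries, 8 lay in the gene, 7 of them nearer its upper than its lower end, 9 beyond the upper end and 2 below the lower end. The highest value of each of these 19 had a median of 12.9 times background, against 5.30 for regions of a single library, where a maximum over more libraries is higher by construction. Across all regions of the series, 13.3% were called in at least 3 libraries, against 26.4% at Fli1, while 6.30% were called in 5 of 5 libraries, against 4.17% at Fli1. Strongest summits of 1 region spread over 295 bp in the median of these 19. In Smc3-het replicate 1, 3 of 9 regions were found in no other library, and in Smc3-het replicate 2, 3 of 16. Among Smc3-wt libraries the regions of a single library numbered 5 of 29, 14 of 34 and 18 of 43. Where all 3 Smc3-wt libraries had a call, in 15 regions, their highest strength was 1.22 to 3.11 times their lowest.

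The neighbouring genes held weak and variable sites. Ets1, the ETS-family gene beyond the upper end (chromosome 9, 32636241 to 32757820), had a gene-end peak in Smc3-wt replicate 2 alone, at 8.81 times background. Kcnj1, a potassium channel gene of the kidney below Fli1, had none in any library. Kcnj5, a potassium channel gene (chromosome 9, 32314706 to 32344380), had none in Smc3-het and one in each Smc3-wt library, at 5.11, 5.18 and 8.28 times background. These were not all the same site. Smc3-wt replicates 1 and 3 had a peak at its upper end, where Smc3-wt replicate 2 had none within 1 kb. The peak of Smc3-wt replicate 2 therefore lay at its lower end, outside the window. Outside the window, Arhgap32 had none, and Kirrel3 had one in Smc3-wt replicates 1 and 2, at 3.65 and 4.15.

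The Kcnj5 promoter is printed because it was the single promoter of the window, among those matched in the RefSeq table (GRCm38.p6), that lay whole inside a called peak. It spans chr9:32344295-32344594 on the minus strand, and the peak belonged to Smc3-wt replicate 3 (pileup 25). No entry for Fli1 was among the promoters matched, so the Fli1 promoter was not examined in this way. Capitals mark the ETS core GGAA or its reverse complement.

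Kcnj5 promoter: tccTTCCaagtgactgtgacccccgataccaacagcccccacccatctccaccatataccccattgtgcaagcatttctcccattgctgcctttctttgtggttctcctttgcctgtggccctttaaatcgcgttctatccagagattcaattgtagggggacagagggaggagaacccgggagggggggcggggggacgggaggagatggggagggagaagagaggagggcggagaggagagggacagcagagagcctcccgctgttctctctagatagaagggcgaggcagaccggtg

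It held 1 match to GGAA, on the strand opposite to the one printed, where 96.0% of 32817 promoter windows of the same length held at least 1 on either strand. The RUNX core TGTGGT matched once, as in 16.8% of windows on either strand, and the GATA core GATAA had no match, where 25.4% of windows did. These matches describe letters and not binding.

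Of the other 6 heptad genes, 4 had a gene-end peak in 5 of 5 libraries, and all 4 were lower in both Smc3-het libraries unscaled, as were 81.5% of all shared regions. Runx1, the DNA-binding core binding factor subunit, had 11.1 and 12.0 times background in Smc3-het, against 17.9, 22.8 and 29.5 in Smc3-wt libraries. Tal1, a basic helix-loop-helix factor, had 11.7 and 16.1 against 37.2, 39.9 and 53.3. Lyl1, its relative, had 24.0 and 30.5 against 35.4, 38.9 and 53.6. Lmo2, the bridging LIM protein, had 4.18 and 8.56 against 11.7, 11.4 and 22.2. Scaled, the 4 went different ways: Tal1 was still lower in both Smc3-het libraries (log2 difference −0.56), Lyl1 was higher in both (0.45), and Runx1 and Lmo2 overlapped (0.10 and −0.18). Their two-sided exact permutation p was 0.2 for Tal1 and Lyl1, 0.6 for Runx1 and 0.8 for Lmo2. Gata2 had a gene-end peak in Smc3-het replicate 1 (7.24) and Smc3-wt replicates 2 and 3 (10.4 and 6.95). Erg had one in Smc3-het replicate 2 (4.79) and Smc3-wt replicate 3 (5.30).

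Of 6 platelet genes known as Fli1 targets, 3 had a gene-end peak in 5 of 5 libraries, and all 3 were lower in both Smc3-het libraries unscaled, while after scaling Itga2b and Gp9 were higher in both and Gp1ba overlapped. Among all shared regions 81.5% were lower unscaled and 18.5% higher scaled, and a gene-end peak was present in every library for 44.2% of 21887 protein-coding genes. Itga2b, the integrin alpha subunit of platelets, had 8.64 and 8.22 times background in Smc3-het, against 9.49, 10.4 and 14.6 in Smc3-wt libraries. Scaled, it was 0.838 and 0.649 against 0.441, 0.455 and 0.500, with both Smc3-het values above every Smc3-wt value (two-sided exact permutation p 0.2). Gp9, a subunit of the von Willebrand factor receptor, had 5.57 and 5.14 against 8.03, 7.25 and 8.94, and Gp1ba, another subunit, 6.41 and 6.51 against 9.85, 12.4 and 12.9. Scaled, Gp9 was 0.541 and 0.405 in Smc3-het libraries, against 0.373, 0.318 and 0.307 in Smc3-wt libraries. A call in every library requires Smc3-het values above their higher scaled floor, which limits the reading of weak sites such as Gp9. Over the 3 genes, the median log2 difference was −0.59 unscaled and 0.50 scaled. The platelet chemokine gene Pf4 had a gene-end peak in Smc3-wt alone, at 14.6, 8.29 and 19.5. Gp6, a collagen receptor gene, had none.

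The gene ends whose levels over the 5 libraries were nearest to the Fli1 promoter-side region were found by distance. Each profile was taken as log2 strength, less the library's median over gene ends and less the gene's own mean, and likeness was the Euclidean distance over 5 libraries. The nearest of 9667 genes with a gene-end peak in every library were Rpl23, which encodes a ribosomal protein, Gna14, a G protein subunit gene, Castor2, Lgals3, the galectin-3 gene, and Ipo4, an importin gene. Their distances ran from 0.106 to 0.125, against a median of 0.847 over all these genes. The named genes were picked for the smallest distances, so values far below the median follow from the choice. Rpl23, for instance, had 7.52 and 9.59 times background in Smc3-het libraries, against 10.9, 14.5 and 18.5 in Smc3-wt libraries.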

How the data were processed

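Bulk ATAC-seq of 2 Smc3-het and 3 Smc3-wt libraries was analysed, grouped by sample titles. Per the submitters' processing notes, the tools were Bowtie2 and MACS2 and the build mm10, with no version stated. Peak names show paired-end calling per library without mitochondrial reads, with no pooling. The deposited lists hold each peak's interval, summit and coverage signal, a fragment pileup in whole numbers. They also hold the deposited fold enrichment, a ratio to the local background, and the deposited −log10 p and −log10 q, whose headers were lost and which were identified by their order and values. These are the authors' values for each peak. The depth in fragments is unknown, so background coverage stands in for it, solved as (pileup + 1)/fold − 1 with its commonest value taken per library.

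Only peaks of autosomes and the X and Y chromosomes entered. Regions were unions over libraries, and a region's value in a library was its strongest summit. Differences between group means were tested by two-sided exact permutation of the labels, over 10 arrangements (smallest p 0.2), with Benjamini-Hochberg adjustment over all shared regions. Equal-size lists held the 26885 strongest peaks by −log10 p. A gene-end peak lay no more than 1 kb from an end of a protein-coding gene of the GRCm38.p6 table, which gives neither strand nor exons, so introns and exons were not told apart. The planned promoter value rested on a gene-end region called in 2 libraries, so the nearest region called in 5 of 5 was added after the data were seen, as was the comparison without Y-linked peaks and the likeness by that region. The named genes were Fli1, its neighbours, the heptad, 6 platelet targets and the 5 nearest profiles. Values of 1 gene of these lists are not reported here. The members and lists were chosen with earlier results of these data known. Alternatives were raw pileup, fold enrichment, scaling, stricter q, other windows, summit clusters, the replicate block and leaving out each library. Code was tested on simulated data. Python 3.11.15, pandas 2.3.3, numpy 2.4.6, scipy 1.17.1 and matplotlib 3.10.9 were used.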

Additional observations from a re-analysis of the deposited data

How the results depend on the processing

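Dividing by the library's median over shared regions turned several directions: 0.25 in scaled units (−0.84 unscaled) for the median strength of the locus, 0.48 (−0.61 unscaled, log2) for the 3 shared regions, 0.49 (−0.27 unscaled, log2) for the gene-end region, and 0.38, 0.76 and 0.29 (log2) for the regions 1.58, 32.45 and 47.1 kb inside Fli1. By construction this removes the lower strength of the Smc3-het lists. It also raises the lowest value that a called peak can take there, relative to the Smc3-wt lists. Raw pileup turned the median strength to 1.67, fold enrichment turned the gene-end region to 0.0282 (log2), and libraries without Y-linked peaks turned the region 47.1 kb inside to 0.0593 (log2). Without 1 library in turn, the median strength ran from −1.96 to 0.279 (without Smc3-het replicate 1), while the shared regions ran from −0.85 to −0.37 (log2).

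The peak count difference of −22.5 was 0.5 in equal-size lists, −14.2 when −log10 q reached 5, −8.83 when it reached 10, −13 with 20 kb each side and −9.67 in the gene body. The covered length difference of −12355 bp was −2390 bp in equal-size lists, −6399 bp when −log10 q reached 10, −7275 bp with 20 kb each side and −5823 bp in the gene body. The last 2 use a smaller window. Leaving out a library gave −26 to −18.5 peaks and −13951 to −9452 bp, and kept both directions. Equal-size lists gave −6.95 for the median strength. With summit clusters within 250 bp, 2 sites were shared by 5 libraries, at −0.52 (log2).

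With the replicate block, pairing numbers 1 and 2, the differences were −18.5 peaks (exact permutation p 0.5, the smallest that 2 pairs allow), −9452 bp and −0.38 (log2) for the shared regions. Smc3-wt replicate 3 has no partner and drops out, and these values equal those found by leaving out that library alone. Same-numbered libraries deviated with correlations of −0.06 and −0.07 across regions. The deviations of the 2 Smc3-het libraries mirror each other, so these values cannot decide whether the numbers pair libraries. For the gene-end region no paired analysis was possible because it was called in 1 library of each genotype. Pileups of 7 to 81 fragments limit the precision of any single site of the locus.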
